A study of Mus musculus with 49 samples.

Results

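Transcript levels of 10 growth genes were followed through the conversion of mouse hepatocytes into progenitor-like cells and organoids. The genes were grouped as oncofetal (mostly switched on before birth and low in adult tissue) or imprinted (expressed from only the maternal or only the paternal chromosome). The 10 genes were Igf2, H19, Igf2bp1, Igf2bp2, Igf2bp3, Lin28b, Hmga2, Grb10, Dlk1 and Meg3. They were chosen by name, and 10 of 10 were found by their Ensembl identifiers among the 46078 genes of the count table.

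The table held 49 CEL-seq2 libraries of 16 conditions, all from wild-type C57BL/6J mice. CEL-seq2 reads the 3′ end of polyadenylated RNA and counts molecules by a unique molecular identifier (UMI), a short random barcode. Adult hepatocytes came from livers of 10-week-old mice and were sequenced freshly isolated (FH, n = 3) or after 3 h and 1, 2, 4, 7 and 14 days in monolayer culture with EGF (n = 3 each). Further hepatocytes were grown for 7 days with 0.3 µM verteporfin, an inhibitor of the Yap coactivator, or with its solvent DMSO (n = 2 each). Cultured hepatocytes that had become expandable progenitor-like cells are termed dediHeps (n = 5). They were also sequenced as cell aggregates made in non-adherent wells (n = 3), as spherical organoids in Matrigel (dediHep-SO, n = 3), and as budding organoids made from dediHeps that carried a Cdx2 transgene (dediHep-BO, n = 3). CLiPs (n = 3) are progenitor-like cells that a published protocol makes from adult hepatocytes. Organoids of intestinal origin were spherical ones from fetal intestinal progenitor cells of E13.5 embryos (FIPC-SO, n = 3) and budding ones from small-intestinal stem cells of 10-week-old mice (ISC-BO, n = 4). The labels gave a number to each library and, for dediHeps, aggregates and dediHep-SOs, a culture code in the column name. Column names of the other libraries end in a number whose meaning is not given. At 3 h it does not line up with the replicate number as at the other times. The labels did not say which of these libraries came from separate animals, so p-values measure the spread between libraries, which may be partly technical.

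Insulin-like growth factor 2 (IGF2) is a fetal mitogen encoded next to H19, a long noncoding RNA, in a cluster where Igf2 is transcribed from the paternal and H19 from the maternal chromosome. The IGF2BP proteins bind and stabilise many mRNAs, and LIN28B blocks the maturation of let-7 microRNAs, which in turn repress Hmga2, Lin28b and Igf2bp transcripts. GRB10 is an adaptor that restrains insulin and IGF1 receptor signalling, DLK1 is a membrane protein of the Notch ligand family, and Meg3 is a noncoding RNA of the imprinted Dlk1 to Dio3 cluster. Most of these genes are abundant in fetal liver or gut and low in the adult organ.

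The let-7 family is shown because its seed has matches in several members, and miR-675 because it is processed from H19; no match to miR-675 was searched. In RefSeq (GRCm38.p6) all 8 mouse let-7 5p microRNA names share 1 seed, bases 2 to 8, printed in capitals in 3 examples and in the 2 arms of miR-675, whose hairpin lies inside H19 on the same strand (chr7:142577112-142577133 and chr7:142577078-142577099, minus strand). The let-7 examples lie at chr13:48538239-48538260 (let-7a, minus strand), chr17:17830366-17830387 (let-7e, plus strand) and chr10:122985698-122985719 (let-7i, minus strand).
mmu-let-7a-5p: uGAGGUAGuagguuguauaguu
mmu-let-7e-5p: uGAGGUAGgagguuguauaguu
mmu-let-7i-5p: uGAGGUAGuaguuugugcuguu
mmu-miR-675-5p: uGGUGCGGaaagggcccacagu
mmu-miR-675-3p: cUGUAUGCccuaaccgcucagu

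The reverse complement of the let-7 seed, CTACCTC, was searched on the sense strand of the longest annotated 3′UTR of each gene (GENCODE M21, GRCm38). Igf2bp1, Lin28b and Hmga2 each held 4 matches, a number that 12 of 20705 genes reached. Their 3′UTRs are long (6337, 4445 and 3014 bases, against a median of 964), and among genes with a 3′UTR of like length 0.336%, 0.298% and 0.124% held as many. Igf2bp2 and Igf2bp3 held 1 match each, where 9.05% of all genes, and 12.1% and 13.4% of those of like length, held at least 1. Igf2, Grb10 and Dlk1 held none. A match is a string of letters and not a shown binding site, and let-7 itself was not measured in these libraries. The first match that is followed by an A is printed for each gene, with the match in capitals and the positions and minus strand of GRCm38.
Igf2bp1 at chr11:95961778-95961805: gcagtgctgtgcgaagtaaaCTACCTCa
Igf2bp2 at chr16:22059473-22059500: gaaaaacacacaaataaaagCTACCTCa
Igf2bp3 at chr6:49086787-49086814: aaacgtgcatttttactcaaCTACCTCa
Lin28b at chr10:45381022-45381049: ccttcacccgggcgggaagtCTACCTCa
Hmga2 at chr10:120364224-120364251: ggggcgccgacattcaatttCTACCTCa

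Library totals ran from 861047 to 3872936 UMIs, and 3 UMIs in a library corresponded to 0.671 to 3.91 counts per 1000000 (CPM, scaled with TMM factors over all 49 libraries), so single values below that range are close to the limit of detection. The 8 hepatocyte markers summed to between 19343 and 22255 CPM in FH and to between 163 and 343 CPM in FIPC-SO. They also summed to 1184 to 1743 CPM in ISC-BO and 992 to 1652 CPM in dediHep-BO, against 1226 to 1587 CPM in 14-day hepatocytes. Sums of this size therefore do not mark hepatocytes alone. The 8 intestinal epithelial markers were all detected in FIPC-SO, dediHep-BO and ISC-BO. The 10 fibroblast and mesenchyme markers were uneven between replicates. They summed to 492 CPM in FIPC-SO replicate 3 against 12 and 6.51 CPM in replicates 1 and 2, and to 296 and 293 CPM in dediHep-BO replicates 1 and 2 against 4.31 CPM in replicate 3. In ISC-BO they summed to at most 1.69 CPM, in dediHeps to at most 3.83 CPM, and in FH to between 73.8 and 182 CPM. In bulk RNA, fewer cells of a type and less RNA per cell cannot be told apart.

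The ligand Igf2 (chr7:142650766-142666816) and its neighbour H19 (chr7:142575529-142578143) peaked in hepatocyte-derived cells and not in the fetal organoids. H19 averaged 2192 ± 573 CPM (SD, n = 3) in aggregates, 779.7 ± 510.2 CPM in dediHeps (n = 5), 391 ± 568 CPM in CLiPs (n = 3) and 38.6 ± 24.4 CPM in FIPC-SO (n = 3). High counts approach the ceiling set by the 6-base UMI, and corrected for UMIs drawn more than once aggregates averaged 5784 ± 770.3 CPM and dediHeps 1166 ± 1026 CPM. Hepatocytes had 0 H19 UMIs in all libraries of FH, 1 day and 2 days. The rest lay below FIPC-SO, at 15.3 ± 4.63 CPM in hepatocytes at 14 days, 12.8 ± 7.88 CPM at 7 days, and between 0.144 and 4.71 CPM on average in the verteporfin, DMSO, dediHep-SO, 4-day, 3-h, ISC-BO and dediHep-BO libraries. Aggregates did not overlap with dediHeps in range. DediHeps, CLiPs, FIPC-SO and the hepatocytes at 14 and 7 days each overlapped with the next group in this order.

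Single H19 libraries varied widely in some groups. The 5 dediHep cultures measured 49.8, 795, 1024, 1426 and 603 CPM, and the 3 CLiP libraries 52.8, 74.2 and 1047 CPM. The hepatocyte markers summed to 1579, 1495 and 7347 CPM in the same CLiP libraries, and their part in this spread was not tested. Thus 1 of 5 dediHep cultures and 2 of 3 CLiP libraries stood far below the highest library of their group. The 3 FIPC-SO libraries measured 46.8, 11.2 and 57.8 CPM, and the 4 ISC-BO libraries 0, 1.27, 0 and 0 CPM.

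Igf2 followed a like order, with 196 ± 190 CPM in aggregates, 119 ± 62.4 CPM in CLiPs and 32.3 ± 23.9 CPM in dediHeps. Its ranges overlapped between each of these and the next. Cultured hepatocytes reached 6.64 ± 2.71 CPM at 14 days and 7.44 ± 1.08 CPM with DMSO (n = 2). FIPC-SO held only 2.71, 1.81 and 3.55 CPM and ISC-BO 0.562, 1.27, 1.74 and 1.37 CPM. All FIPC-SO libraries lay above all ISC-BO libraries, but both groups stood at or near the detection limit and Igf2 did not pass the filter for this comparison. There was no Igf2 UMI in FH, in 2-day hepatocytes or in dediHep-BO. Over the 16 group means of log2 CPM, the gene most like Igf2 among 12458 compared was H19 (Pearson r = 0.92), followed by Tceal5 (0.90) and Wt1 (0.89). The genes most like H19 were Lrtm2 (0.92), Igf2 (0.92) and Npb (0.91). These points share libraries and depth, and the correlations are descriptions.

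**Figure D1:**
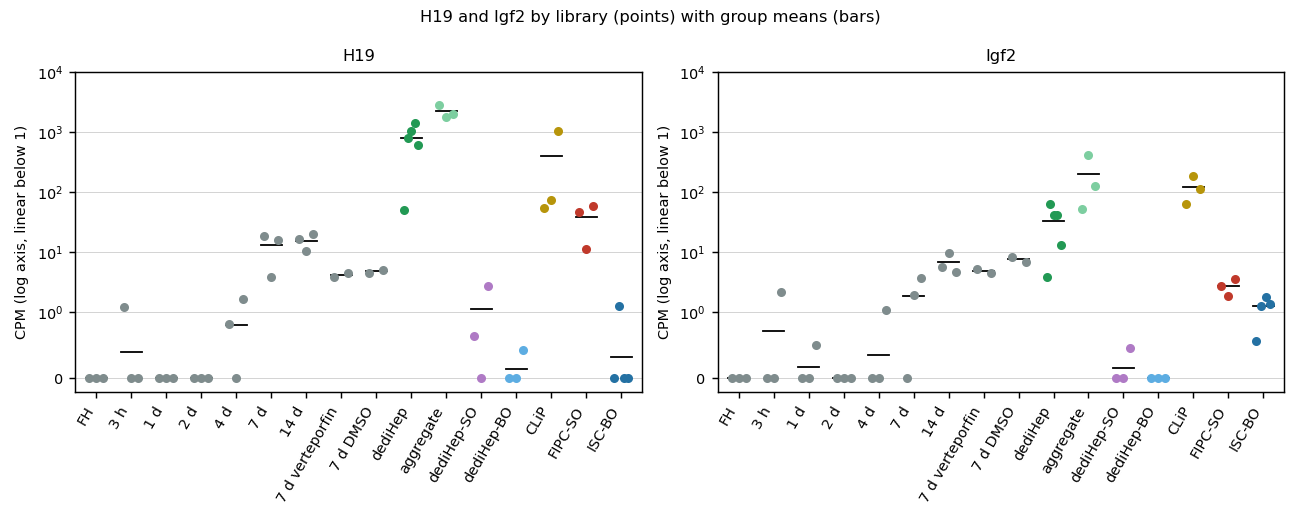
CPM of H19 (left) and Igf2 (right) in each of the 49 libraries (points) of 16 conditions, with group means (bars), on a log axis that is linear below 1 CPM. H19 averages 2192 CPM in aggregates and Igf2 196 CPM, whereas dediHep-SO and dediHep-BO libraries of both genes lie at or below 2.72 CPM. Values are not corrected for UMI saturation, which lowers H19 most in aggregates (5784 CPM on average after correction).

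Igf2bp1 (chr11:95957163-96005940) was highest in the fetal organoids. The 3 FIPC-SO libraries measured 204, 120 and 111 CPM (145 ± 51.7, SD), and no other library exceeded 73.3 CPM. ISC-BO, FH and 1-day hepatocytes held 0 UMIs in every library, and dediHep-BO 1 UMI in all. DediHeps came second with 22.4, 65.6, 25.6, 40.7 and 73.3 CPM, followed by aggregates with 17.2 ± 15.3 CPM, hepatocytes at 14 days with 9.89 ± 3.89 CPM, verteporfin with 9.54 ± 5.57 CPM, dediHep-SO with 4.95 ± 2.65 CPM, 7-day hepatocytes with 4.93 ± 3.49 CPM, CLiPs with 4.81 ± 0.924 CPM, DMSO with 4.08 ± 1.31 CPM and 4-day hepatocytes with 3.05 ± 1.14 CPM. From dediHeps down to 4-day hepatocytes each group overlapped with the next. The genes with the most similar profile were Msln (Pearson r = 0.84 over 16 group means), Trim71 (0.83), a developmental regulator that is itself repressed by let-7, and Amotl1 (0.82).

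Igf2bp3 (chr6:49085223-49214957) was likewise highest in FIPC-SO, at 179, 174 and 132 CPM (162 ± 26.1), above every other library. Aggregates (54.4 ± 32.6 CPM), dediHeps (50.3 ± 19.9 CPM), ISC-BO (30.5 ± 16.9 CPM), DMSO (26.4 ± 5.19 CPM), 14-day hepatocytes (26.0 ± 13 CPM), dediHep-BO (24.6 ± 33.7 CPM), dediHep-SO (22.4 ± 8.59 CPM), verteporfin (16.8 ± 4.39 CPM), 7-day hepatocytes (12.6 ± 5.19 CPM) and CLiPs (6.17 ± 7.00 CPM) followed with overlapping neighbours. In dediHep-BO the values were 3.00, 7.35 and 63.4 CPM, so the library with few mesenchyme markers held most of the Igf2bp3 RNA. The part of those markers in this spread was not tested. The 3′ end of Igf2bp3 overlaps that of Malsu1 on the opposite strand, and the sources used here do not state whether counting used strand. FH held 15 to 31 UMIs of Malsu1 and 0 of Igf2bp3, whereas FIPC-SO held 41 to 65 of Malsu1 and 408 to 482 of Igf2bp3.

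Igf2bp2 (chr16:22059009-22163299) was detected in 49 of 49 libraries. FIPC-SO measured 294, 160 and 195 CPM (217 ± 69.4), and its range overlapped with that of CLiPs (144 ± 53.9 CPM). Aggregates (133 ± 20.0 CPM), ISC-BO (125 ± 25.1 CPM), 14-day hepatocytes (109 ± 38.2 CPM), dediHeps (91.0 ± 25.6 CPM), dediHep-SO (83.1 ± 17.0 CPM) and dediHep-BO (72.9 ± 7.77 CPM) came next, each overlapping with its neighbour. FH (6.57 ± 5.91 CPM) and 3-h hepatocytes (3.66 ± 1.66 CPM) were lowest. The adult organoids (ISC-BO) thus held 89.8 to 149 CPM of Igf2bp2, against 160 to 294 CPM in FIPC-SO, and no UMI of its paralog Igf2bp1.

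**Figure D2:**
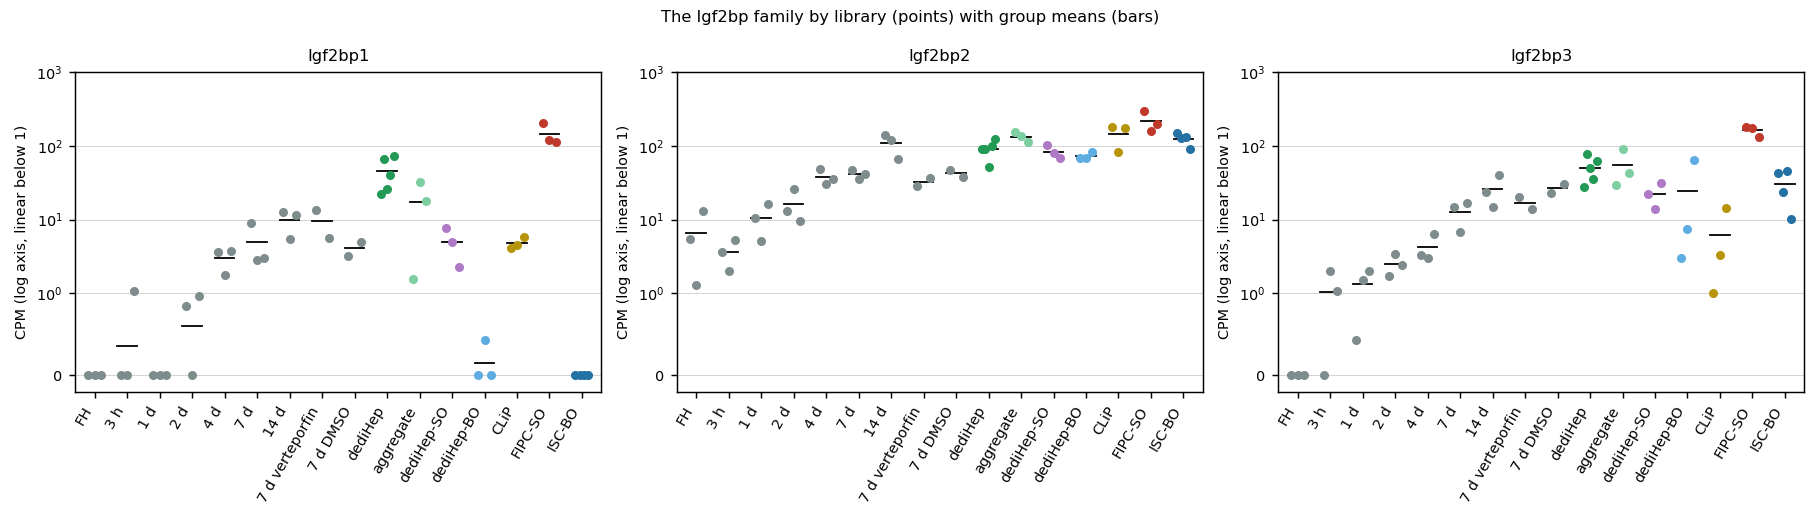
CPM of Igf2bp1, Igf2bp2 and Igf2bp3 in each library (points) with group means (bars), on a log axis that is linear below 1 CPM. FIPC-SO has the highest mean of all 3 genes (145, 217 and 162 CPM), and ISC-BO lies at 0 for Igf2bp1 only.

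Lin28b (chr10:45376620-45486395) was nearly undetected. It gave 32 UMIs in 17 of 49 libraries, and its highest count in any library was 6. FIPC-SO had the highest mean (1.60 ± 1.11 CPM), from 13 UMIs in all, while ISC-BO, FH, 2-day hepatocytes, DMSO and aggregates had 0. The filter on low counts removed Lin28b from every comparison.

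Hmga2 (chr10:120361275-120476469), a chromatin architectural protein of proliferating embryonic cells, did not follow the fetal order. Its highest levels were in hepatocytes cultured for 14 days, at 851, 1713 and 1605 CPM (1390 ± 469.6), followed after a gap by DMSO (708 ± 101 CPM), FIPC-SO (615 ± 261 CPM), 4-day hepatocytes (533 ± 303 CPM), dediHeps (515 ± 243 CPM), 2-day hepatocytes (439 ± 177 CPM), 7-day hepatocytes (394 ± 245 CPM), verteporfin (378 ± 7.47 CPM), CLiPs (267 ± 117 CPM), dediHep-BO (236 ± 77.8 CPM), aggregates (199 ± 86.8 CPM), dediHep-SO (178 ± 69.2 CPM) and ISC-BO (171 ± 65.5 CPM), each overlapping with the next. The highest FIPC-SO library (910 CPM) lay within the range at 14 days. FH (1.53 ± 1.36 CPM) and 3-h hepatocytes (1.05 ± 1.07 CPM) lay at the detection limit. The 4 adult intestinal organoid libraries held 116 to 261 CPM. The closest profiles were those of Zfp850 (Pearson r = 0.97), S100a6 (0.96) and Mapre1 (0.96).

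Grb10 (chr11:11930508-12038683) was high in 3 conditions. FIPC-SO measured 213, 170 and 140 CPM (174 ± 36.5), verteporfin 185 and 167 CPM, and DMSO 117 and 110 CPM. Every library of these 3 conditions lay above every other library of the series. DediHep-SO (51.1 ± 49.9 CPM), CLiPs (45.3 ± 24.5 CPM), 14-day hepatocytes (32.6 ± 23.5 CPM), aggregates (30.4 ± 46.1 CPM), dediHeps (22.0 ± 29.0 CPM), 7-day hepatocytes (16.9 ± 4.89 CPM), FH (12.5 ± 9.23 CPM) and the earlier cultures (4.61 to 8.17 CPM on average) overlapped in range with their neighbours, and ISC-BO (2.82 ± 1.34 CPM) and dediHep-BO (2.25 ± 1.52 CPM) were lowest. Hepatocytes grown for 7 days without solvent measured 13.1, 15.3 and 22.4 CPM, far below the DMSO libraries of the same duration. No test was made between these groups, and whether they were prepared together cannot be told from the labels.

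Grb10 also differed between cultures that share a condition. DediHeps measured 7.12, 18.8, 72.5, 11 and 0.482 CPM, and aggregates 0, 83.4 and 7.69 CPM. DediHep-SO measured 42.2, 105 and 6.34 CPM. The highest dediHep culture (replicate 3) and the highest dediHep-SO (replicate 2) carried the same culture code. The order was not kept in the other cultures, since the culture of dediHep replicate 2 (18.8 CPM) gave 83.4 CPM as aggregates and 6.34 CPM as dediHep-SO. The genes most like Grb10 over group means were Bex4 (Pearson r = 0.88), Bhlhb9 (0.83) and Capsl (0.805).

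Meg3 (chr12:109541001-109571726) was highest in 14-day hepatocytes, at 29.3, 51.6 and 40.1 CPM (40.3 ± 11.1). It measured 5.23, 5.26 and 32.7 CPM at 7 days and 4.25, 0.362 and 14.9 CPM in FIPC-SO. ISC-BO and dediHep-BO held no UMI. In FIPC-SO the highest library was replicate 3, in which the mesenchyme markers summed to 492 CPM. In dediHep-BO the libraries with 296 and 293 CPM of these markers held 0 Meg3 UMIs, and the 7-day library with the most Meg3 had the fewest of them (47.8 CPM). The part of mesenchymal cells in the Meg3 levels was not tested. The genes most like Meg3 were Nsg1 (Pearson r = 0.93), Col5a2 (0.90), a fibrillar collagen chain, and Tgfb1i1 (0.87). Its neighbour Dlk1 (chr12:109452823-109463336), a marker of fetal hepatoblasts, gave 57 UMIs in all and at most 10 in any library, and its group means did not exceed 2.04 CPM.

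**Figure D3:**
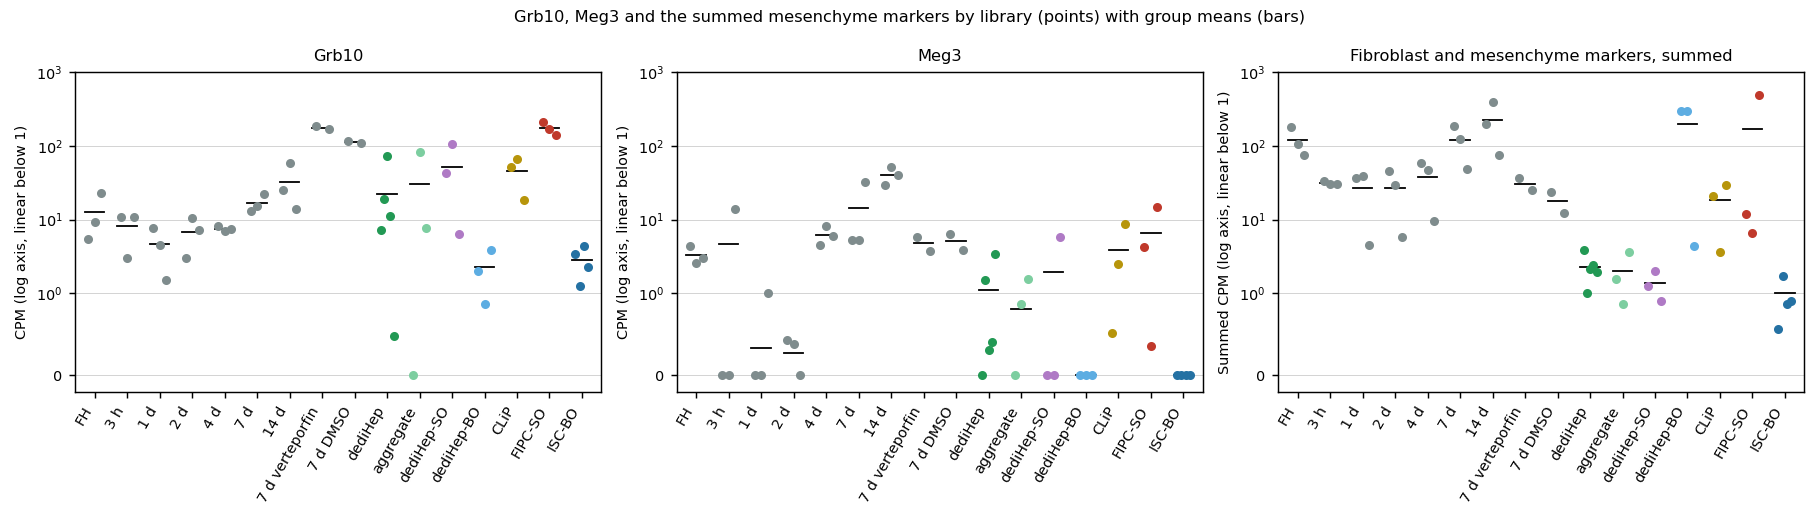
CPM of Grb10 (left) and Meg3 (middle), and the summed CPM of 10 fibroblast and mesenchyme markers (right), in each library (points) with group means (bars) on log axes that are linear below 1. FIPC-SO, verteporfin and DMSO hold the 7 highest Grb10 libraries, and the marker sums split FIPC-SO (492 CPM against 12 and 6.51) and dediHep-BO (296 and 293 CPM against 4.31).

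Fetal and adult intestinal organoids were compared to ask which of these genes differ between them. Age, shape and, by the paper's description, added Wnt agonists in the medium differ together in this pair and cannot be told apart. FIPC-SO held more H19, Igf2bp1, Igf2bp3 and Grb10 RNA than ISC-BO: 4 of the 10 genes were called higher (adjusted p under 0.1 and a log2 fold change over 2, edgeR's quasi-likelihood test) and none lower, where 2.62% of 11644 tested genes were called higher and 4.0% lower. The log2 fold changes were 6.67 ± 0.86 (SE) for H19 (adjusted p = 0.000426), 2.48 ± 0.43 for Igf2bp3 (adjusted p = 0.00282) and 6.00 ± 0.39 for Grb10 (adjusted p = 1.28e-05). Igf2bp1 had an adjusted p of 4.04e-05. Against the 0 UMIs of ISC-BO it was at least 409.9-fold higher (floor of 3 UMIs over the group), and H19, with 3 UMIs in ISC-BO, was 113-fold higher with a counting interval of 38.3 to 549.7. All 3 of these UMIs lay in ISC-BO replicate 2, and without it the fitted value was 9.60 against a group with no UMI, which depends on the prior count.

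Hmga2 and Igf2bp2 differed by less. Hmga2 was 1.90 ± 0.34 higher on the log2 scale (adjusted p = 0.00311) and Igf2bp2 0.85 ± 0.28 (adjusted p = 0.0736), which put 6 of the 10 genes under the adjusted p of 0.1 at any fold, where 16.2% of all genes tested were. Genes such as H19 and Igf2bp1 passed the filter on low counts only through FIPC-SO, and genes low in both groups were not tested, so this share is partly set by the filter. All libraries of FIPC-SO lay above all of ISC-BO for the 6 members tested, where 10.1% of all genes tested did so, and the filter bears on this count too. Igf2, Lin28b and Meg3 also did so, but at low counts. They were not tested, so that share does not apply to them. The exception was Dlk1, with 11 against 3 UMIs. Leaving out 1 library at a time gave 4 to 6 genes called (Meg3 joined without FIPC-SO replicate 2). Hmga2 passed the fold threshold without FIPC-SO replicate 2 (2.12) or replicate 3 (2.01), without ISC-BO replicate 3 (2.17), and with correction for UMI collisions (2.26). Igf2bp2 had an adjusted p of 0.15 without FIPC-SO replicate 3.

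The same fetal organoids were then set against the hepatocyte-derived organoids of the same spherical shape. FIPC-SO exceeded dediHep-SO in H19 (log2 fold change 5.09 ± 0.88, adjusted p = 0.00394), Igf2bp1 (4.84 ± 0.49, adjusted p = 0.000243) and Igf2bp3 (2.85 ± 0.37, adjusted p = 0.000821), where 3.99% of 11608 genes were called higher and 4.92% lower. H19, with 8 UMIs in dediHep-SO, passed the filter only through FIPC-SO, so the filter partly sets this count. At any fold 5 genes were under an adjusted p of 0.1, where the share was 23.5% of all genes. Hmga2 (1.81 ± 0.38, adjusted p = 0.0101) and Igf2bp2 (1.40 ± 0.32, adjusted p = 0.0165) were higher by less than the threshold. Grb10 differed by 1.80 ± 0.70 (adjusted p = 0.115), and without dediHep-SO replicate 2, its highest library, by 2.82 (adjusted p = 0.043). Igf2 gave 23 UMIs in FIPC-SO and 1 in dediHep-SO, a ratio of 20.1 with a counting interval of 3.26 to 827.

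Against dediHep-BO, FIPC-SO was called higher in H19, Igf2bp1, Igf2bp3 and Grb10, where 2.53% of 11547 genes were called higher and 3.48% lower. H19 and Igf2bp1, with 1 UMI each in dediHep-BO, passed the filter only through FIPC-SO, so the filter partly sets this count. The fitted log2 fold changes were 6.26 ± 0.44 for Grb10 (adjusted p = 1.88e-05) and 2.73 ± 0.76 for Igf2bp3 (adjusted p = 0.0322). H19, with 331 UMIs against 1, was 260-fold higher with a counting interval of 46.3 to 10293 (adjusted p = 0.000403). Igf2bp1, with 1203 UMIs against 1, was 944-fold higher with a counting interval of 169 to 37329 (adjusted p = 1.88e-05). Without the 2 dediHep-BO libraries that held mesenchyme markers, Igf2bp3 was at 1.39 (adjusted p = 0.163), while H19, Igf2bp1 and Grb10 (5.51) stayed past both thresholds. That fit assumes that the 1 remaining dediHep-BO library varies like the others. Leaving out dediHep-BO replicate 2 alone also ended the Igf2bp3 call (2.31, adjusted p = 0.105), and over all single libraries its value ran from 2.23 to 4.94. The comparisons with ISC-BO, dediHep-SO and dediHep-BO use the same 3 FIPC-SO libraries.

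Between FIPC-SO and dediHeps the direction depended on the gene. FIPC-SO was lower in H19 (log2 fold change -4.22 ± 0.93, adjusted p = 0.00772) and Igf2 (-3.46 ± 0.82, adjusted p = 0.0108), where 8.12% of 12128 genes were called lower, and higher in Grb10 (3.04 ± 0.87, adjusted p = 0.0259), where 6.31% were. The Grb10 value was 4.25 without dediHep replicate 3, the culture with 72.5 CPM. The ranges of H19 overlapped, since 1 dediHep culture measured 49.8 CPM. Igf2bp1 (1.77 ± 0.42, adjusted p = 0.0106), Igf2bp3 (1.77 ± 0.34, adjusted p = 0.00335) and Igf2bp2 (1.34 ± 0.32, adjusted p = 0.0114) were higher in FIPC-SO below the fold threshold, so that 6 genes were under the adjusted p at any fold, as were 34.3% of all genes. Hmga2 differed by 0.35 ± 0.38 (adjusted p = 0.537). Against FH, 6 genes were called higher in FIPC-SO (H19, Igf2bp1, Igf2bp2, Igf2bp3, Hmga2 and Grb10), where 15.4% of 11394 genes were. H19, Igf2bp1 and Igf2bp3 had 0 UMIs in FH and passed the filter only through FIPC-SO, so the filter partly sets this count. Without FIPC-SO replicate 3, which held mesenchyme markers, the genes called were the same against dediHep-SO (3), dediHep-BO (4), dediHeps (3) and FH (6).

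**Figure D4:**
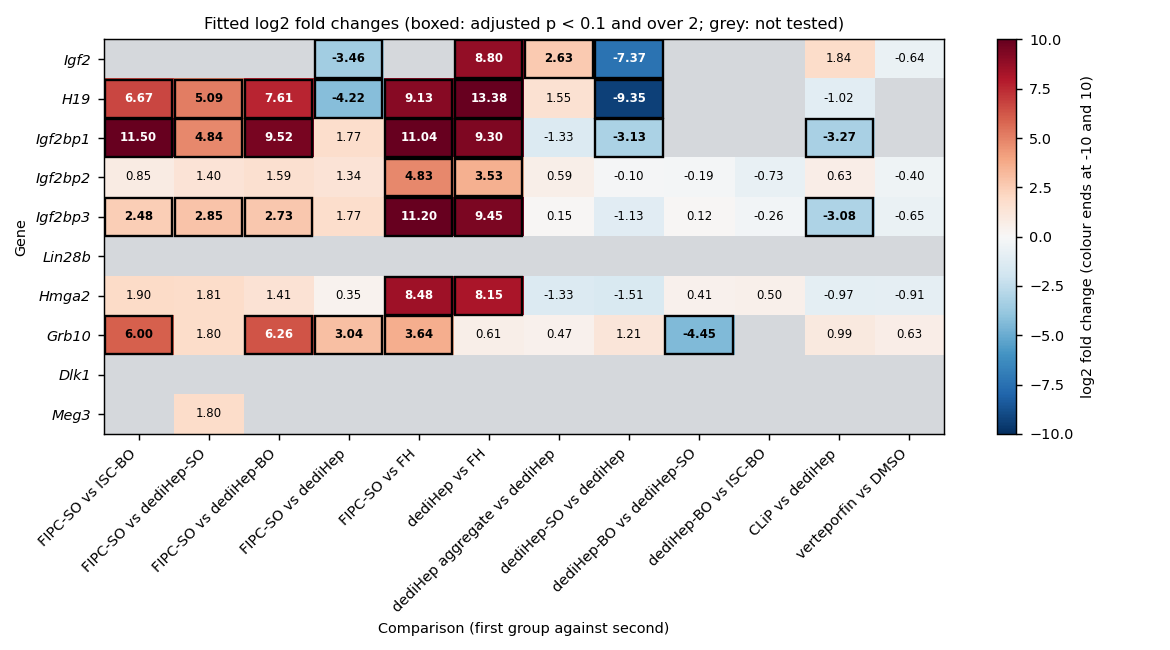
Fitted log2 fold changes of the 10 genes (rows) in 12 comparisons of 2 groups (columns, first against second); boxes mark an adjusted p under 0.1 with a fold change over 2 on the log2 scale, and grey marks genes not tested. The columns of FIPC-SO against ISC-BO, dediHep-SO and dediHep-BO are positive for every gene tested, whereas FIPC-SO against dediHep is negative for Igf2 (-3.46) and H19 (-4.22); values against a group with 0 UMIs depend on the prior count of the fit.

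The culture of hepatocytes as dediHeps was compared with FH to ask which fetal genes return. DediHeps were higher in 6 of the 10 genes, where 13.1% of 11276 genes were called higher: Igf2, H19, Igf2bp1, Igf2bp2, Igf2bp3 and Hmga2. Genes with 0 UMIs in FH passed the filter on low counts only through dediHeps, so this count is partly set by the filter. FH held 0 UMIs of 4 of these, so that dediHeps were at least 754-fold higher in H19 (adjusted p = 0.000391), at least 30.3-fold in Igf2 (adjusted p = 0.00418), at least 39.1-fold in Igf2bp1 (adjusted p = 0.000265) and at least 44.9-fold in Igf2bp3 (adjusted p = 0.000113). Hmga2 rose by 8.15 ± 0.75 (adjusted p = 1.11e-05) and Igf2bp2 by 3.53 ± 0.59 on the log2 scale (adjusted p = 0.000729). Grb10 differed by 0.61 ± 1.04 (adjusted p = 0.688), and by -0.62 without dediHep replicate 3.

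The time course gave the time at which each gene was first called against FH, which is not a test of the order of onset. At 3 h none of the 7 tested genes was called by edgeR (1 at an unadjusted p under 0.05), nor by DESeq2, where 3.06% of 12443 genes were called higher and 3.85% lower. H19, Igf2bp1, Igf2bp3 and Hmga2 held at most 3 UMIs at 3 h and at most 4 in FH. They passed the filter through later times, so the missing calls say little about them. Hmga2 rose from 1 day on. It measured 79.6, 58.0 and 109 CPM at 1 day against 0, 2.61 and 1.99 CPM in FH (log2 fold change 5.55 ± 0.77, adjusted p = 7.15e-06), and 635, 289 and 393 CPM at 2 days (7.98 ± 0.77, adjusted p = 3.24e-08). It stayed between 202 and 810 CPM at 4 and 7 days and was 9.68 ± 0.79 above FH at 14 days (adjusted p = 1.17e-09).

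Igf2bp3 was called at 1 day from 1, 3 and 4 UMIs against 0 (adjusted p = 0.0824), where 6.57% of genes were called higher, but the call was lost under DESeq2 (adjusted p = 0.164), in a fit of all 49 libraries (0.243), and without any 1 FH library or 1-day replicate 2 or 3 (0.126 to 0.167). At 2 days its adjusted p was 0.0176, where 9.21% of genes were called higher. From there Igf2bp3 climbed to 3.05 to 6.42 CPM at 4 days, 6.70 to 16.5 CPM at 7 days and 14.6 to 40.1 CPM at 14 days. Igf2bp1 and Igf2bp2 were first called at 4 days, where 11.4% of genes were called higher. Igf2bp2 already averaged 10.5 CPM at 1 day and 16.1 CPM at 2 days, against 6.57 CPM in FH. Igf2bp1 had an adjusted p of 0.0189 and was at least 2.71-fold above FH. Igf2bp2 rose by 2.32 ± 0.53 (adjusted p = 0.00133), a value that fell to 1.90 without FH replicate 2. H19 was first called at 7 days, with 18.7, 3.83 and 15.8 CPM against 0 in FH (at least 12.2-fold, adjusted p = 0.00104), where 13.2% of genes were called higher. The 14-day hepatocytes (10.3 to 19.5 CPM) stayed below every dediHep culture in H19, of which the lowest held 49.8 CPM.

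Meg3 was low at 1 and 2 days and higher at 14 days, with few UMIs at the early times. FH measured 4.35, 2.61 and 2.99 CPM, 1-day hepatocytes 0, 0 and 1.01 CPM, and 2-day hepatocytes 0.424, 0.382 and 0 CPM. The 3-h hepatocytes held 13.9 CPM (13 UMIs) in 1 library and 0 in the others, so a steady fall from FH was not seen. Both falls were called (adjusted p = 0.0829 and 0.0618), where 10.9% and 12.1% of genes were called lower, on 2 UMIs against 9 in each case. The ratios were 10.5 (counting interval 2.17 to 99.8) and 11.8 (2.44 to 112), and the calls were lost in a fit of all 49 libraries (adjusted p = 0.16 and 0.123) and in most fits without 1 library. The 1-day call was lost without any 1 FH library or 1-day replicate 1 or 2 (0.115 to 0.202), and the 2-day call without FH replicate 1 or any single library of 2 days (0.101 to 0.153). The mesenchyme markers went from 73.8 to 182 CPM in FH to 4.55 to 39.1 CPM at 1 day and 5.78 to 45.4 CPM at 2 days, and 7 endothelial markers from 176 to 319 CPM to 22.7 to 90.7 and 11.6 to 101 CPM. Their part in the fall was not tested. At 14 days Meg3 was 3.43 ± 0.95 above FH (adjusted p = 0.00493), where 14.1% of genes were called higher. The mesenchyme markers ran from 74.4 to 388 CPM in the 14-day libraries and from 73.8 to 182 CPM in FH, and their part in this rise was not tested.

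**Figure D5:**
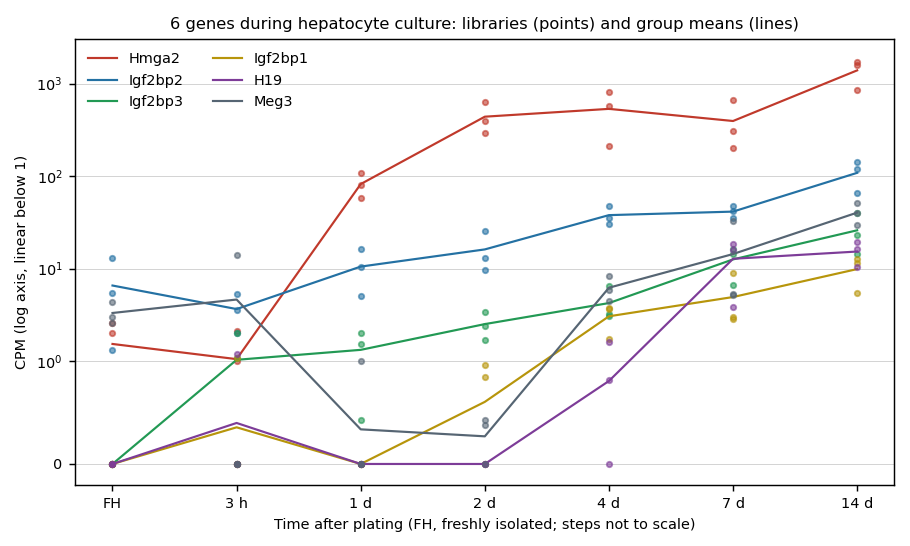
CPM of 6 genes in freshly isolated hepatocytes (FH) and at 6 times after plating; points are libraries, lines join the means of 3 libraries, the time steps are not to scale, and the log axis is linear below 1 CPM. Hmga2 rises from 1.53 CPM in FH to 82.0 CPM at 1 day, and H19 leaves 0 only from 4 days on apart from 1 UMI at 3 h. Meg3 averages 4.64 CPM at 3 h, all from 1 library, and 0.337 and 0.269 CPM at 1 and 2 days, from 2 UMIs each.

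DediHep aggregates were compared with the monolayer. The summed hepatocyte markers were 6905 to 11134 CPM in aggregates and 716 to 4157 CPM in dediHeps. Igf2 was the 1 gene called higher (log2 fold change 2.63 ± 0.76, adjusted p = 0.0435), where 4.39% of 11265 genes were called higher and 5.11% lower, and it lost the call without aggregate replicate 2 (1.52, adjusted p = 0.236). In the 3 cultures sequenced in both forms Igf2 went from 3.83 to 51.8 CPM, from 63.1 to 412 CPM and from 41.1 to 126 CPM. It was thus higher in aggregates in 3 of 3 cultures. The fitted changes and adjusted p of this comparison did not use the pairing and took in all 5 dediHep libraries.

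H19 in the same cultures went from 49.8 to 2842 CPM, from 795 to 1758 CPM and from 1426 to 1977 CPM, and all aggregates lay above all dediHeps. Its fitted change of 1.55 ± 0.67 did not pass (adjusted p = 0.134). The aggregate libraries held 3675, 4045 and 3855 H19 UMIs, close to the ceiling that 6 random bases set for a gene in a library. Correcting the counts for UMIs drawn more than once gave a log2 fold change of 2.40 (adjusted p = 0.0702), past both thresholds, with 6003, 6420 and 4927 corrected CPM in aggregates and 41.8 to 2651 in dediHeps. The deposited counts of H19 in these libraries lie below the corrected ones.

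Hmga2 and Igf2bp1 ran the other way. Hmga2 fell from 308 to 99.8, from 889 to 259 and from 604 to 238 CPM in the 3 cultures (log2 fold change -1.33 ± 0.43, adjusted p = 0.0613, below the fold threshold), so that 2 genes passed at any fold, as did 24.4% of all genes. Igf2bp1 measured 22.4 and 1.55, 65.6 and 32.2, and 40.7 and 17.9 CPM in the same pairs, and its difference of -1.33 ± 0.69 did not pass (adjusted p = 0.199). Igf2bp2 (0.59 ± 0.30), Igf2bp3 (0.15 ± 0.43) and Grb10 (0.47 ± 1.26) had adjusted p of 0.196, 0.827 and 0.819.

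DediHep-SO held less RNA of 3 of the 10 genes than dediHeps, where 4.65% of 11470 genes were called lower and 4.12% higher. Igf2 and H19, with 1 and 8 UMIs in dediHep-SO, passed the filter only through dediHeps, so the filter partly sets this count. H19 measured 0.63, 0 and 2.72 CPM in dediHep-SO (log2 fold change -9.35 ± 1.26, adjusted p = 0.000825). Igf2, with 1 UMI in dediHep-SO against 391, was 249-fold lower with a counting interval of 44.5 to 9876 (adjusted p = 0.00313). Igf2bp1 fell by 3.13 ± 0.57 on the log2 scale (adjusted p = 0.00512), from 22.4 to 73.3 CPM in dediHeps to 7.56, 5.02 and 2.26 CPM. Hmga2 fell by 1.51 ± 0.41, which was below the fold threshold (adjusted p = 0.0377), while Igf2bp3 (-1.13 ± 0.43), Grb10 (1.21 ± 1.03) and Igf2bp2 (-0.10 ± 0.33) had adjusted p of 0.125, 0.502 and 0.876. Hepatocyte markers in dediHep-SO summed to 14.5 to 37.5 CPM.

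Grb10 was the 1 gene called between the hepatocyte-derived organoid forms. DediHep-BO measured 2.00, 0.864 and 3.88 CPM against 42.2, 105 and 6.34 CPM in dediHep-SO (log2 fold change -4.45 ± 0.93, adjusted p = 0.00679), where 5.68% of 11301 genes were called lower and 5.6% higher. With only the dediHep-BO library that held few mesenchyme markers the value was -3.71 (adjusted p = 0.225). Igf2bp1 was at 39 UMIs in dediHep-SO and 1 in dediHep-BO, a ratio of 35.1 (counting interval 5.93 to 1420), and did not pass the filter. Igf2bp2 (-0.19 ± 0.27), Igf2bp3 (0.12 ± 0.84) and Hmga2 (0.41 ± 0.33) had adjusted p of 0.612, 0.923 and 0.36.

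DediHep-BO were compared with ISC-BO, budding organoids of intestinal origin. None of the 3 genes tested was called by edgeR (1 at an unadjusted p under 0.05) or DESeq2, where 1.34% of 11303 genes were called higher and 1.71% lower. Differences were -0.73 ± 0.25 for Igf2bp2 (adjusted p = 0.117), 0.50 ± 0.32 for Hmga2 (adjusted p = 0.361) and -0.26 ± 0.79 for Igf2bp3 (adjusted p = 0.871), and the last became -2.45 (adjusted p = 0.0688) without dediHep-BO replicate 3. Igf2 gave 0 UMIs in dediHep-BO and 11 in ISC-BO, and H19, Igf2bp1, Lin28b and Meg3 at most 3 in either group.

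The spherical against budding contrast was also tested for a difference between the 2 origins, FIPC-SO against ISC-BO and dediHep-SO against dediHep-BO. Hmga2 was the 1 of 7 genes tested that passed at an adjusted p under 0.1 (difference of log2 fold changes 2.29 ± 0.52, adjusted p = 0.0133), where 9.24% of 12379 genes did in this direction and 9.09% in the other. It was higher in spherical than in budding organoids of intestinal origin and measured 151, 256 and 126 CPM in dediHep-SO against 176, 208 and 324 CPM in dediHep-BO. For Grb10, which was higher in spherical organoids of both origins, the difference of 1.52 ± 1.11 did not pass (adjusted p = 0.366). Igf2bp1 (6.78 ± 2.51) and Igf2bp3 (2.56 ± 1.03) had adjusted p of 0.102 and 0.117. Shape cannot be told apart from age in the intestinal pair, nor from the Cdx2 transgene in the dediHep pair. In the paper, spherical organoids formed in medium with added Wnt agonists, crypts grew without these agonists, and budding of dediHep organoids followed their removal. Medium may thus be a further difference that cannot be told apart from shape in either pair. Without FIPC-SO replicate 3 the Hmga2 difference was 2.37 (adjusted p = 0.0248).

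CLiPs, a second kind of hepatocyte-derived progenitor, were lower than dediHeps in RNA of the paralogs Igf2bp1 and Igf2bp3. Igf2bp1 measured 4.10, 4.47 and 5.85 CPM (log2 fold change -3.27 ± 0.53, adjusted p = 0.015) and Igf2bp3 1.02, 3.35 and 14.1 CPM (-3.08 ± 0.74, adjusted p = 0.0582), where 1.39% of 11567 genes were called lower and 1.65% higher. The Igf2bp3 call was lost without dediHep replicate 2, 3 or 5 or CLiP replicate 1 or 2 (adjusted p = 0.102 to 0.191). Igf2 (1.84 ± 0.68, adjusted p = 0.204), H19 (-1.02 ± 1.06, adjusted p = 0.661) and Hmga2 (-0.97 ± 0.43, adjusted p = 0.293) did not pass. Of 6 macrophage and leukocyte markers 2 were detected in CLiPs, Csf1r and Cd68, with summed levels of 70.7 to 149 CPM. Ptprc, Adgre1, Tyrobp and Clec4f had 0 UMIs there. The part of the 2 detected markers in these differences was not tested.

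Verteporfin was compared with DMSO in hepatocytes at 7 days, with 2 libraries in each group. None of 5 genes tested was called by edgeR or DESeq2, where 0.24% of 10400 genes were called higher and 0.0288% lower, and 2 of them were under an unadjusted p of 0.05. Hmga2 measured 383 and 373 CPM with verteporfin and 779 and 637 CPM with DMSO (log2 fold change -0.91 ± 0.22, adjusted p = 0.211). Grb10 measured 185 and 167 CPM against 117 and 110 CPM (0.63 ± 0.25, adjusted p = 0.491). The groups did not overlap for any of the 5 genes tested: Grb10 was higher and Igf2, Igf2bp2, Igf2bp3 and Hmga2 were lower with verteporfin. Of all genes tested, 21.3% lay above and 18.7% below without overlap. Full separation is easily reached with 2 libraries in each group.

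Related genes were counted to set the 10 in the context of their pathways. Of 25 other oncofetal and hepatoblast genes, 19 were tested between FIPC-SO and ISC-BO, and 10 were called higher and 1 lower (median log2 fold change 3.95, against 0.03 over all genes), where 2.62% and 4.0% of all genes were. Genes absent from 1 group pass the filter only where the other group is high, so counts and medians of such lists are partly set by the filter. Among them were the tight junction protein Cldn6 (49.2 against 0.141 CPM) and Bex1 (log2 fold change 5.20, 145 against 4.05 CPM). Against dediHep-SO 4 of 17 were higher and 2 lower (median 0.55 against 0.03), where 3.99% and 4.92% of all genes were. Of the 25, 13 were tested between dediHeps and FH and 10 were called higher, where 13.1% of all genes were, among them the surface glycoprotein Cd24a (851 against 0.725 CPM) and the transcription factor Sox4 (612 against 1.49 CPM). In CLiPs 1 of 15 was higher than in dediHeps and 3 were lower (median 0.08 against -0.03), where 1.65% and 1.39% of all genes were, and the 1 was Cldn6 (243.9 against 0.0965 CPM).

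Of 23 further genes of the LIN28 and let-7 axis, 22 were tested between FIPC-SO and ISC-BO and 2 were higher, none lower (median 0.49 against 0.03), where 2.62% and 4.0% of all genes were. They were the transcription factor Arid3a (4.58, 30.1 against 1.26 CPM) and Trim71 (9.17 against 0.223 CPM). In dediHep-SO each measured 0.423 CPM. In dediHeps 5 of 19 were higher than in FH and none lower (median 0.68 against 0.08), where 13.1% and 12.6% of all genes were, led by the cyclin Ccnd2 (4.87, 567 against 17.1 CPM) and the phosphatase Cdc25a (2.45). The 5 include Hmga1 and Hmga1b, near-identical genes whose reads the counting could split, so their values are uncertain. In aggregates 3 of 20 were lower than in dediHeps and none higher (median -0.29 against -0.07), where 5.11% and 4.39% of all genes were: Ccnd2 (-2.72), Nras (-2.04) and Myc (-4.36).

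Of 54 other imprinted genes, 29 were tested between FIPC-SO and ISC-BO, and 3 were higher and none lower (median -0.15 against 0.03), where 2.62% and 4.0% of all genes were. They were the noncoding RNA Kcnq1ot1 (5.21, 103.9 against 2.84 CPM) and the zinc finger genes Peg3 (5.70, 43.2 against 0.83 CPM) and Plagl1 (5.01, 30.2 against 0.921 CPM). In dediHeps 4 of 27 were higher and 5 lower than in FH (median -0.23 against 0.08), near the 13.1% and 12.6% of all genes, with Peg3 higher (6.58, 618 against 5.43 CPM) and the amino acid transporter Slc38a4 lower (-9.18, 1.90 against 983 CPM). In dediHep-SO 2 of 28 were higher and 3 lower than in dediHeps (median -0.60 against -0.05), where 4.12% and 4.65% of all genes were, and Dio3, which shares the cluster of Dlk1 and Meg3, went from 44.3 to 0 CPM.

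Of 18 other genes of IGF signalling, 6 were tested between FIPC-SO and ISC-BO and none was called by edgeR or DESeq2, with 3 at an unadjusted p under 0.05 (median 0.42 against 0.03). In dediHeps 3 of 13 were higher and 5 lower than in FH (median -1.49 against 0.08), where 13.1% and 12.6% of all genes were. The circulating ligand Igf1 fell from 895 to 0.935 CPM (log2 fold change -10.08), and its carrier Igfals from 266 to 1.98 CPM (-7.21). The binding protein Igfbp2 was listed at 588 CPM in FH and at 0 in dediHeps. In aggregates Igfbp1 was higher than in dediHeps (3.78, 464 against 35.0 CPM), and the receptors Igf1r (-3.02) and Igf2r (-2.07) were lower.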

How the data were processed

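The authors deposited 1 table of UMI counts per gene, made with the celseq2 pipeline from 3′ CEL-seq2 reads. Their processing notes name bcl2fastq 2.20, Bowtie2 2.3.1, HTSeq 0.6.0 and GRCm38. The strand setting of the counting is not given in the sources used here. Counts were used as deposited, and 45143 identifiers were given GENCODE M21 symbols. UMIs have 6 bases, so a gene's count per library has a ceiling, and duplicated UMIs make high counts too low.

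Levels are CPM with TMM factors over 49 libraries. Each pair of groups was fitted alone, and the time course in 1 fit, with edgeR 4.0.16 (R 4.3.3; filterByExpr, minimum count 10; TMM; quasi-likelihood F-test; Benjamini-Hochberg over all genes tested, 10400 to 12443). Calls needed an adjusted p below 0.1 with a log2 fold change beyond 2 in size, and in the difference between origins at the adjusted p alone. Fitted folds against 0 counts depend on the prior count, so a floor of 3 counts over the group was used for bounds, and intervals are exact at 95%. Intervals and floors cover counting error only. A gene near 0 counts in 1 group is tested only where another group is high, so counts of called members are partly set by the filter. For the 3′UTR comparison, like length means a ratio of at least 0.8, the shorter over the longer. Likeness is Pearson's r over 16 group means of log2 CPM (prior count 2), named for the 3 highest genes with a group mean of at least 5 CPM.

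The members, gene lists and rules were chosen with earlier results of these data known. All 10 members were described; of each related list, genes were named from the called ones with the smallest p. On simulated data 198 of 200 genes changed by a log2 fold of 3 were recovered for FIPC-SO against ISC-BO (11189 genes), 186 of 200 for dediHep against FH (9504 genes), and 200 of 200 for verteporfin against DMSO (10377 genes). Unchanged genes called were 4, 5 and 0. The changed genes were drawn from well-counted ones, so the recovery does not cover members with low or 0 counts. Means and dispersions came from the second group of each comparison and were used for both groups. The recovery therefore does not cover a first group that varies more. Values of aggregates and dediHeps were listed in pairs by culture code, since libraries of 1 code deviated together (r = 0.183 to 0.342, 3 pairs). The main fit did not use these pairs, which entered only as the block among the alternatives. No 2 libraries of a group were the same library (chi-square per degree of freedom 5.62 to 68.0 over 54 pairs). Alternatives were RLE normalization, no filter, a replicate block, DESeq2 1.42.0, UMI collision correction, all 49 libraries in 1 fit, no fold threshold and leaving out each library; leaving out dediHep-BO replicates 1 and 2 together was added after the data were seen.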

Additional observations from a re-analysis of the deposited data

Results flagged for a closer look

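Of 17 combinations of a gene with a group of 4 or 5 libraries, 2 held a library that stood apart by Dixon's test at the 95% level, which chance gives in about 1 in 20 groups. H19 measured 1.27 CPM in ISC-BO replicate 2, which is 3 UMIs, and 0 in the 3 other libraries. With 3 libraries at 0 any other value would stand apart by this test, so it says nothing here. Grb10 measured 72.5 CPM in dediHep replicate 3, and 0.482 to 18.8 CPM in the 4 others.

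The difference in Hmga2 between spherical and budding organoids was not the same in the 2 origins. By edgeR's quasi-likelihood test the interaction was 2.29 ± 0.52 on the log2 scale (adjusted p = 0.0133): FIPC-SO exceeded ISC-BO by 1.90, whereas dediHep-BO lay 0.41 above dediHep-SO (adjusted p = 0.36). Of 12379 genes, 9.24% passed in this direction and 9.09% in the other, so such a difference is not particular to Hmga2. Shape cannot be told apart from age in the intestinal pair, nor from the Cdx2 transgene in the dediHep pair. Medium may differ in both. Without dediHep-BO replicates 1 and 2, which held mesenchyme markers, the interaction was 2.71 (adjusted p = 0.0325).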

How the results depend on the processing

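RLE normalization kept direction and call for 121 of 121 fitted member fold changes, DESeq2 for 118, UMI correction, no filter and the fit of all 49 libraries for 117 each. Leaving out 1 library kept 785, lost 22 calls, gained 19 and turned 18. Low counts limit Igf2, Lin28b, Dlk1 and Meg3, and the cause of the changes below was not tested.

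Without the filter the members called went from 3 to 6 (FIPC-SO vs dediHep-SO), 4 to 7 (vs dediHep-BO), 1 to 3 (dediHep-BO vs dediHep-SO), 0 to 1 (dediHep-BO vs ISC-BO) and 1 to 3 (difference between origins). At any fold they were 5 (FIPC-SO vs dediHep-SO), 6 (vs dediHep) and 2 (aggregates vs dediHep). UMI correction gave 2 for aggregates and 2 for the difference between origins, and DESeq2 gave 3 for the latter. With all 49 libraries in 1 fit they were 3 (dediHep-BO vs dediHep-SO), 1 (1 day vs FH) and 2 (difference between origins). Without dediHep-BO replicates 1 and 2 they were 0 (dediHep-BO vs dediHep-SO) and 2 (difference between origins), and Igf2bp3 against ISC-BO turned to 1.07.

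With the replicate number as a block, FIPC-SO vs dediHep-SO had 5 (Grb10 2.34, adjusted p = 0.00619, and Meg3 2.16, adjusted p = 0.0588, joined) and the difference between origins 2. Igf2bp2 in dediHep-SO vs dediHep turned to 0.13 and Igf2bp3 in dediHep-BO vs dediHep-SO to -0.72. Except for aggregates, pairing rests on numbers or codes whose libraries did not all deviate together, with 3 pairs each (2 for verteporfin), and the block changed no member call between aggregates and dediHeps.

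Leaving out 1 library gave 3 to 5 called (FIPC-SO vs dediHep-SO; 5 without dediHep-SO replicate 2), 0 to 1 (aggregates; 0 without replicate 2), 1 to 3 (dediHep-BO vs dediHep-SO; 3 without dediHep-BO replicate 3), 0 to 1 (dediHep-BO vs ISC-BO), 1 to 2 (CLiP), 1 to 3 (1 day) and 1 to 3 (difference between origins). Fold changes that turned ranged from -0.055 to 0.63 (Hmga2, FIPC-SO vs dediHep), -0.62 to 1.38 (Grb10, dediHep vs FH), -0.41 to 0.43 (Igf2bp3) and -2.37 to 1.72 (Grb10, aggregates), -0.28 to 0.060 (Igf2bp2, dediHep-SO vs dediHep), -2.05 to 0.64 (Igf2bp3) and -0.27 to 0.0049 (Igf2bp2, dediHep-BO vs dediHep-SO), -2.45 to 0.26 (Igf2bp3, dediHep-BO vs ISC-BO), and, at 3 h vs FH, -1.36 to 0.093 (Hmga2), -1.32 to 0.051 (Igf2bp2), -0.99 to 0.17 (Grb10) and -5.80 to 1.12 (Meg3), and -0.077 to 1.08 (Grb10, 7 days vs FH). None of these passed with all libraries in.

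Over all genes the calls moved by more than 1.5 times mainly without the filter (771 to 1504 for FIPC-SO vs ISC-BO), in the all-library fit (352 to 1169 for CLiP, 28 to 0 for verteporfin, which rose to 90 without the filter, 59 with the block and 43 to 106 without verteporfin replicate 2 or a DMSO library), and without CLiP replicate 1 (109) or dediHep-SO replicate 3 (2269 to 4659, difference between origins).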
